A study of Mus musculus with 18 samples.

Results

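Uracil left in DNA by active AID was followed at the opposite ends of uracil removal: in cells given Ugi, which blocks UNG, and in cells given extra UNG. The members were the 3 Ugi AID libraries and the 3 UNG AID libraries, 6 of the 18 libraries of the series, chosen by their titles and taken in pairs by experiment number. The Ugi AID cells were NIH-3T3 cells, an established mouse fibroblast line, carrying the retroviral reporter mOrangeSTOP, an AID-ER vector and pBABE-Ugi. The UNG AID cells carried the same reporter and AID-ER vector with pBABE-UNG. AID-ER is AID fused to an estrogen receptor domain, and all cells were kept with its ligand OHT at 1 µM for 11 days after selection with puromycin or hygromycin. The background came from the 3 Ugi AID-E58Q and 3 UNG AID-E58Q libraries, whose AID-E58Q-ER is catalytically inactive. All vectors were retroviral, so the protein levels of AID-ER, Ugi and UNG depend on the vectors, and no measurement of them was used here. The reporter is a transgene and has no coordinates in the mouse genome. Positions count from the first base of its coding sequence.

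AID, activation-induced cytidine deaminase, converts cytosine to uracil and prefers the hotspot WRC, where W is A or T and R is A or G. B cells use it to diversify antibody genes. A polymerase that copies uracil reads it as thymine, which gives a transition from C to T, or from G to A when the uracil lay on the other strand. UNG, uracil-DNA glycosylase, cuts the uracil out and leaves a site with no base. Copying past such a site can place any base and so give transversions, and the polymerase REV1 is known to place C there, which turns C into G. In B cells a mismatch repair route also acts on the U:G pair and spreads substitutions to A:T pairs.

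The reporter holds 7 copies of AGCT, which reads the same on both strands and thus offers AID a hotspot C on each strand. They are shown because the largest differences between Ugi and UNG in transversions lay in them. The capitals mark AGCT, the letters are the coding strand 5′ to 3′, and each name gives the positions of the motif. The second copy shares positions 230 and 231 with an engineered in-frame stop codon at positions 229 to 231.
Site at 149 to 152: cagaccgctaAGCTgaaggtgacc
Site at 230 to 233: tccaaggcctAGCTgaagcacccc
Site at 266 to 269: gactacttcaAGCTgtccttcccc
Site at 383 to 386: tacaaggtgaAGCTgcgcggcacc
Site at 512 to 515: atgaggctgaAGCTgaaggacggc
Site at 578 to 581: aagcccgtgcAGCTgcccggcgcc
Site at 698 to 701: ggcatggacgAGCTgtacaagtaa

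A second set of sites is shown for comparison. The capitals mark the hotspot's 4 letters. The first 4 are among the 10 largest transition differences, and read AACT at 399 and 309 and TACA at 534 and 558. The site at 218 reads AGCC on the strand of its C, and so differs from AGCT in the base after the C. The site at 237 reads TGCT on the strand of its C. It is shown because the size of its transversion difference lay among those of AGCT.
Site at 399: gcgcggcaccAACTtcccctccga
Site at 534: cggcggccacTACAcctccgaggt
Site at 558: caagaccaccTACAaggccaagaa
Site at 309: gcgcgtgatgAACTtcgaggacgg
Site at 218: gttcacctacGGCTccaaggccta
Site at 237: gcctagctgaAGCAccccgccgac

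The 6 libraries held 62680863 to 95011754 base calls over a Phred quality of 20, with a median of 91068 to 141761 calls per position. Over these and the AID-E58Q libraries, a count of 0 at the median coverage allowed a frequency of up to 0.00212% to 0.00801%, taking 3 counts as the limit. Coverage at the AGCT bases was at least 24140 calls in every library, except at position 699, where it was at least 1046. Intervals and limits cover counting error only, since PCR copies carried no molecular identifiers. In 4 of the 6 libraries the reads at the start of the reporter stopped near 500000. Of the 679 positions, 45 to 723, 674 were tested, 426 C:G and 248 A:T pairs, and the 5 positions 700 to 704 were left out for low coverage. Some features of single libraries or experiments touch the results. Ugi AID of experiment 3 had far more transitions than the other Ugi AID libraries, with 46.9 per 10000 calls at C:G pairs against 11.6 and 9.49 in experiments 1 and 2. UNG AID of experiment 1 had raised C>A and G>T calls, also at the AID coldspot SYC (S is C or G, Y is C or T), where they stood at 5.52 per 10000 calls against 1.11 and 1.38 in UNG AID of experiments 2 and 3. All groups of experiment 3 had high A>C and T>G calls. Whether each experiment was its own transduction is not in the labels. The p-values therefore reflect the spread among libraries alone, part of which may be technical. For the permutation tests these are the 6 compared libraries. The main edgeR fit takes its spread from all 18 libraries, with the groups titled Control AID and Control AID-E58Q among them.

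Ugi and UNG left AID's mark in different kinds of substitution. Averaged over the C:G pairs, transitions made up 11.6, 9.49 and 46.9 per 10000 calls in Ugi AID libraries of experiments 1, 2 and 3, against 4.91, 4.02 and 7.74 in UNG AID libraries. Every Ugi AID library lay above every UNG AID library. Transversions went the other way, with 2.79, 2.30 and 2.01 per 10000 calls in Ugi AID libraries and 8.17, 3.5 and 7.80 in UNG AID libraries, again with no overlap. Transitions were 2.36-, 2.36- and 6.07-fold and transversions 0.342-, 0.656- and 0.257-fold with Ugi over UNG within experiments 1, 2 and 3. The mean differences were 1.69 and -1.37 on the log2 scale (exact two-sided permutation p = 0.1 for each, the smallest that 3 libraries against 3 can give, and 0.2 adjusted over 12 such values). Taken as 3 pairs, the smallest possible p is 0.25.

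The transition share shows the same change of kind within each library. Transitions were 80.6%, 80.5% and 95.9% of all C:G substitutions in Ugi AID libraries, against 37.5%, 53.4% and 49.8% in UNG AID libraries (difference of log2 odds 3.07, exact permutation p = 0.1, adjusted 0.2). These shares include the PCR and sequencing background of all C:G pairs. The shares lay further apart in WRCY, the hotspot followed by a pyrimidine (36 base pairs, either strand). They were 94.8%, 95.5% and 98.8% with Ugi and 31.2%, 37.8% and 37.2% with UNG. In the 13 tested C:G pairs of AGCT they were 96.1%, 95.7% and 98.9% with Ugi and 23.3%, 32.8% and 31.7% with UNG. In WRCY other than AGCT they were 92.4%, 95.2% and 98.7% with Ugi and 52.0%, 51.4% and 55.4% with UNG. In WRC before a purine they were 89.6%, 91.6% and 97.9% with Ugi and 66.9%, 63.1% and 62.1% with UNG. Outside AGCT, the UNG AID shares of the hotspots thus lay near or above those over all C:G pairs.

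Among the 12 single substitutions, both strands of the C:G pair gave the same picture. C>T stood at 10.9, 8.57 and 42.6 per 10000 calls with Ugi, against 4.27, 2.70 and 6.09 with UNG. G>A stood at 12.3, 10.5 and 51.6 with Ugi and 5.6, 5.44 and 9.51 with UNG. Both were higher in every Ugi AID library. C>G, the change to the complementary base, stood at 1.03, 0.571 and 0.829 per 10000 with Ugi and 2.66, 1.42 and 3.94 with UNG. G>C stood at 0.782, 0.488 and 0.799 with Ugi and 3.05, 2.04 and 5.69 with UNG, so both complementary changes were lower in every Ugi AID library. For C>A, at 1.84, 1.74 and 1.13 per 10000 with Ugi and 4.67, 1.65 and 2.75 with UNG, the groups overlapped. G>T did not overlap, at 1.93, 1.80 and 1.26 with Ugi and 6.03, 1.93 and 3.32 with UNG, where the library of experiment 1 is the one with raised C>A and G>T calls.

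**Figure D1:**
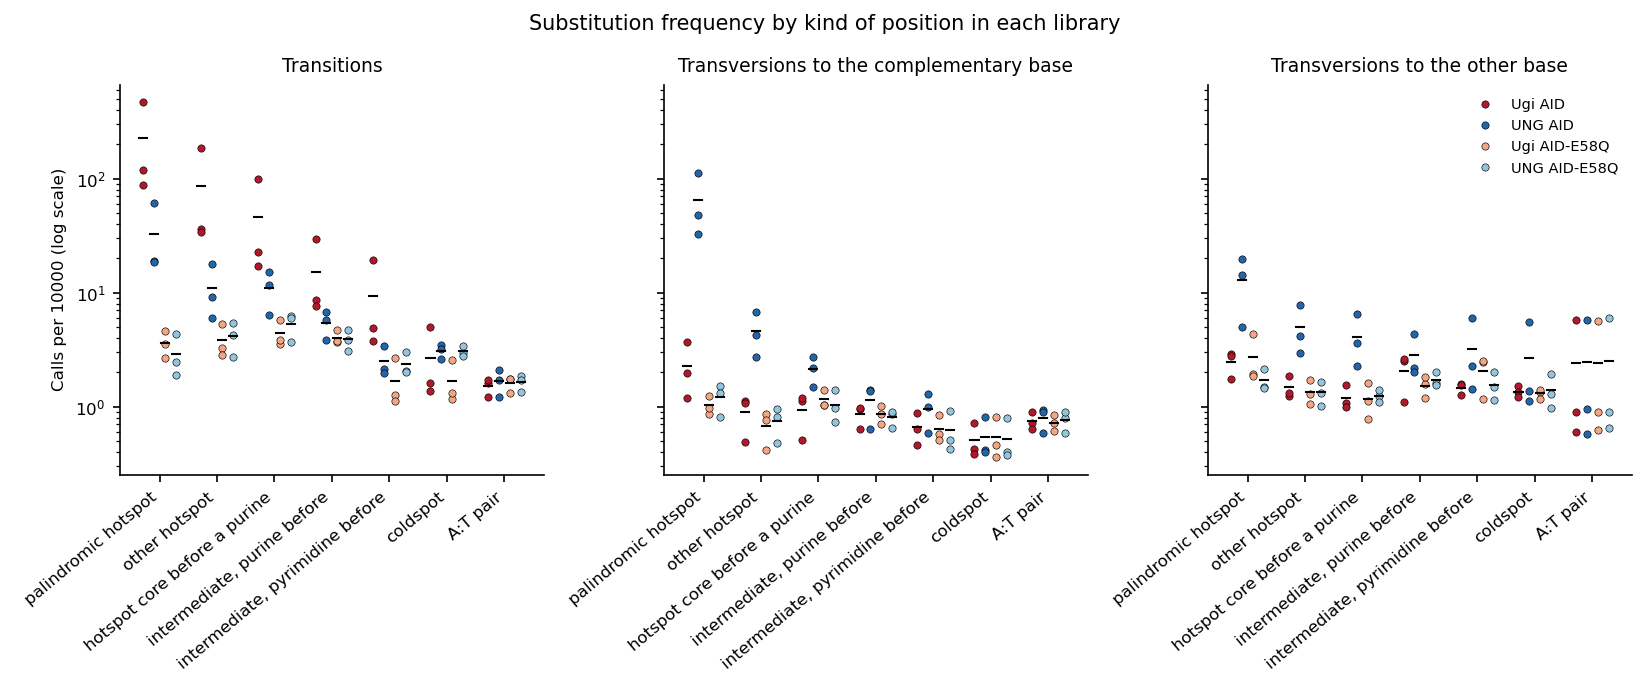
Frequencies of substitutions by kind and site class, in calls per 10000 on a log axis, for Ugi AID, UNG AID, Ugi AID-E58Q and UNG AID-E58Q, with a point for each library and a bar for the mean of 3. In the palindromic hotspot AGCT, Ugi AID transitions (87.8 to 469) lie above UNG AID transitions (18.6 to 61.3), and Ugi AID changes to the complementary base (1.18 to 3.69) lie below those of UNG AID (33.0 to 112).

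The transition difference was larger in the hotspot classes than in the coldspot. Within WRCY its median over positions was smaller in AGCT than in the other sites. The ratio of AGCT to other WRCY levels nevertheless overlapped between the groups (log2 difference -0.016, exact permutation p = 0.9). Within experiments 1, 2 and 3 that ratio was 1.59-, 0.828- and 0.735-fold with Ugi over UNG. In WRCY, transitions stood at 66.7, 53.6 and 289 per 10000 calls with Ugi and 12.7, 10.5 and 33.6 with UNG, 5.25-, 5.09- and 8.59-fold within experiments (log2 difference 2.61, exact permutation p = 0.1, adjusted 0.2). In WRC before a purine (30 pairs) they were 22.9, 17.3 and 99.4 with Ugi and 11.7, 6.42 and 15.1 with UNG. In SYC (139 pairs) they were 1.61, 1.37 and 4.97 with Ugi and 2.60, 3.45 and 3.21 with UNG. The groups were thus apart in both hotspot classes and overlapped in the coldspot. In SYC the AID-E58Q libraries did not overlap, at 1.16 to 2.58 per 10000 calls with Ugi and 2.79 to 3.41 with UNG. Ugi AID lay above Ugi AID-E58Q there in each experiment, in experiment 2 only slightly. UNG AID lay above UNG AID-E58Q in experiment 2 and below it in experiments 1 and 3. What these backgrounds contributed to the overlap in SYC was not tested. The ratio of WRCY to all other C:G pairs was higher with Ugi than with UNG in all 3 experiments, by 1.44 on the log2 scale (exact permutation p = 0.1, adjusted 0.2). With AID-E58Q of the same experiment subtracted this became 0.11.

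Setting each group's excess over its own AID-E58Q libraries side by side gives the transitions that remained with UNG. In WRCY, the UNG AID excess was 14.3%, 16.0% and 10.1% of the Ugi AID excess in experiments 1, 2 and 3. In AGCT it was 14.1%, 19.8% and 12.3%, and in the other 23 WRCY pairs 14.8%, 10.3% and 6.89%. The neighbours before the C went with larger differences. At AAC (11 pairs) the UNG AID excess was 7.23%, 1.13% and 3.61% of that with Ugi, and at TAC (15 pairs) 8.01%, 9.78% and 5.93%. At TGC (16 pairs) it was 42.3%, 31.7% and 13.6%. The share of transitions that remained with UNG was thus higher at TGC than at AAC or TAC in each of the 3 experiments, without a test of that difference.

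By position, transitions passed the threshold of adjusted p 0.05 (edgeR quasi-likelihood test, Benjamini-Hochberg over 674 positions) at 94 positions, 13.9% of those tested, all higher with Ugi and all C:G pairs. None was lower, beside 161 positions at an unadjusted p under 0.05 in either direction. DESeq2 called 113 higher and 2 lower, and limma 62 higher and 0 lower. With experiment as a block, 155 positions (23%) were higher and 3 (0.445%) lower, and all 94 were among the 155. The 3 lower positions were the A:T pairs 49 and 643 and the C:G pair 361, named after their values were seen, and at each the groups overlapped. The groups did not overlap at 97 positions higher (14.4%) and 3 lower (0.445%) with Ugi. The median log2 difference was 0.38 over all positions and 1.06 over C:G pairs. With TMM factors, which assume that most positions do not change, these were -0.22 and 0.29, with 83 positions higher and 10 lower, so a small median such as that of SYC has no settled sign.

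**Figure D2:**
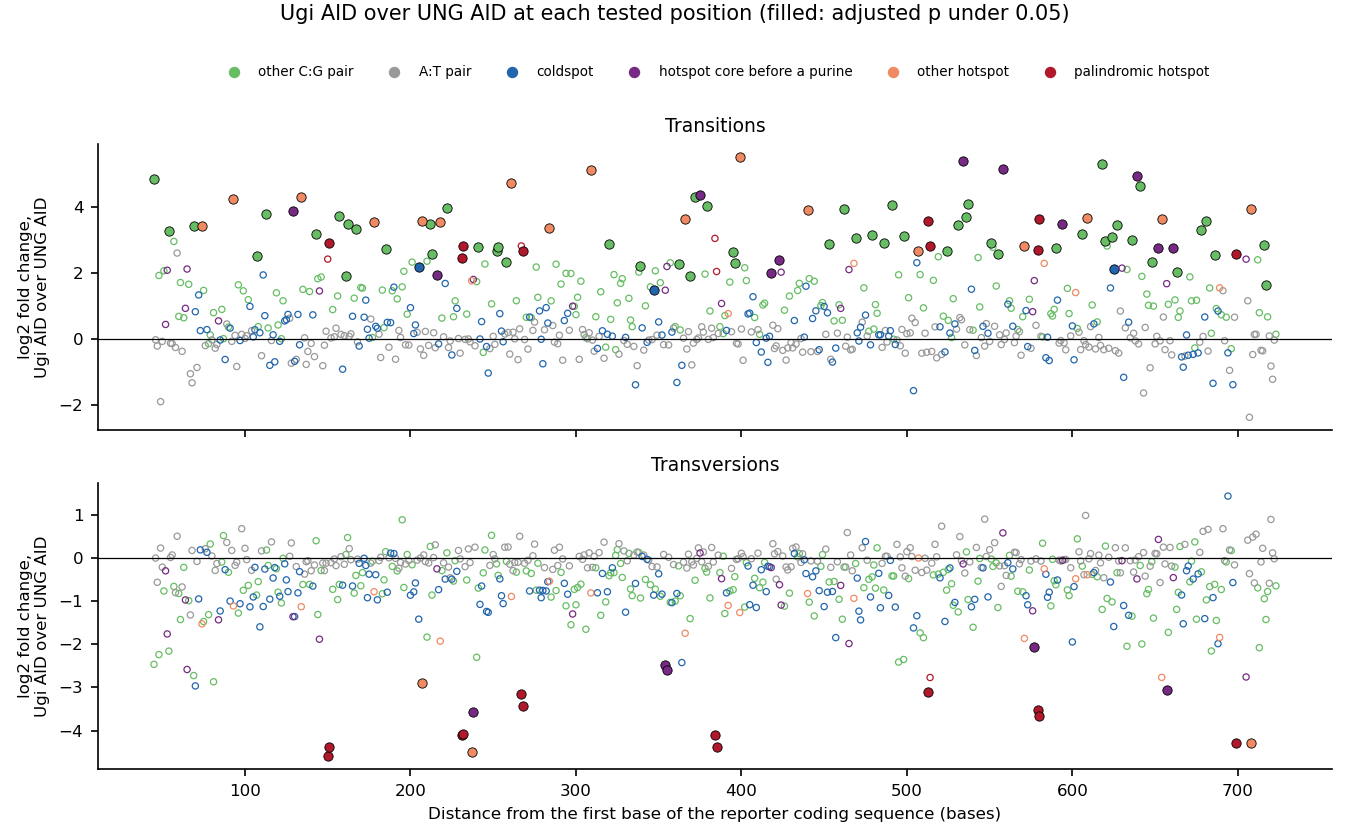
Log2 of Ugi AID over UNG AID at each tested position, against the position in the coding sequence in bases, for transitions and for transversions, with positions past adjusted p 0.05 filled. All 94 filled positions in transitions lie above 0 and all 20 in transversions lie below 0.

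Read against the 13.9% of all positions, transition calls were most frequent in WRCY, but 68 of the 94 lay outside WRCY. Transitions were higher with Ugi at 26 of 36 WRCY pairs (median log2 difference 2.99), including 9 of 13 in AGCT (2.82) and 17 of the other 23 (3.55). They were higher at 11 of 30 WRC pairs before a purine (2.06), 3 of 139 SYC pairs (0.25), 11 of 96 TC pairs (0.81) and 6 of 114 CpG pairs (0.35). Of the 131 C:G pairs in none of these classes 42 were higher (1.78), and of the 248 A:T pairs 0 (-0.05). Cutting across these classes, 25 of the 96 pairs with W and then a pyrimidine before the C were higher (1.76). With the block the counts were 35 of 36 in WRCY, 13 of 13 in AGCT and 20 of 30 in WRC before a purine. The 4 AGCT bases that missed the threshold, 150, 267, 384 and 385, had log2 differences of 2.43, 2.83, 3.05 and 2.05 (adjusted p = 0.131, 0.0596, 0.0586 and 0.0790, edgeR), and passed with the block (adjusted p = 0.00103, 0.00233, 2.77e-04 and 0.00340).

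None of the 10 largest transition differences was in AGCT, and at all of them but position 618 A stood immediately before the C. At position 399, in AACT, transitions made up 0.324%, 0.255% and 2.60% of calls with Ugi and 0.0146%, 0.0273% and 0.0276% with UNG (log2 difference 5.51, SE 1.11, adjusted p = 0.00609, edgeR). Position 534, in TACA, had 0.531%, 0.317% and 2.35% with Ugi and 0.0154%, 0.0126% and 0.0481% with UNG (5.39, SE 0.84, adjusted p = 0.00154, edgeR). Every Ugi AID library lay well above every UNG AID library at both. At position 558, also in TACA, the values were 0.558%, 0.120% and 1.38% with Ugi and 0.0136%, 0.0228% and 0.0206% with UNG (5.16, SE 1.10, adjusted p = 0.00667, edgeR). Position 309, in AACT, had 0.243%, 0.116% and 1.29% with Ugi and 0.00968%, 0.00584% and 0.0317% with UNG (5.13, SE 0.98, adjusted p = 0.00565, edgeR).
At position 375 UNG AID lay below UNG AID-E58Q in experiments 1 and 2 and above it in experiment 3. The position, in TACA, had 0.360%, 0.169% and 1.25% in Ugi AID and 0.0405%, 0.00514% and 0.0405% in UNG AID, beside 0.0516%, 0.0457% and 0.0166% in UNG AID-E58Q (log2 difference 4.36). The remaining 5 of the 10 largest were 618 in ATCA (5.31), 639 in TACA (4.93), 45 after AA (4.86), 261 in TACT (4.74) and 641 in CACC (4.65). Position 618 is a pyrimidine-preceded C and 641 follows CA, so neither is a WRC hotspot.

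The number of transition calls depended on single libraries. It became 5 without UNG AID of experiment 1, 3 without that of experiment 2 and 26 without Ugi AID of experiment 3, and it rose to 144 without Ugi AID of experiment 2. It was 0 without experiment 1 in all groups, 46 without experiment 2 and 62 without experiment 3. A fit of the compared groups alone gave 0, with 116 positions at an unadjusted p under 0.05 (edgeR). With the block it was 149 without experiment 1, 148 without UNG AID of experiment 1 and 87 without Ugi AID of experiment 3.

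Transversions were lower with Ugi at 20 positions, 2.97% of those tested, and higher at 0 (edgeR quasi-likelihood test; 63 positions at an unadjusted p under 0.05 in either direction; 31 lower by DESeq2 and 20 by limma). All 20 were WRC hotspots. They included 12 of the 13 AGCT bases (median log2 difference over the 13, -4.07), 3 of the other 23 WRCY pairs and 5 of 30 WRC pairs before a purine. The groups did not overlap at 59 positions (8.75%), all lower with Ugi. The AGCT base not among the 20, position 514, had -2.77 (adjusted p = 0.0807, edgeR) and passed with the block (3.52e-04). With the block 37 positions (5.49%) were lower, the 20 among them. The count was 3 without Ugi AID of experiment 2, 12 without that of experiment 1 or 3, 13 without UNG AID of experiment 3, 13 without experiment 3, 9 without experiment 2 and 0 without experiment 1. A fit of the compared groups alone gave 8.

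Splitting the transversions by the base they gave separated these sites further. Changes to the complementary base were lower with Ugi at 25 positions (3.71%), including all 13 AGCT bases, with log2 differences of -5.64 to -3.98 there. The block gave 32 (4.75%), and limma 16. Changes to the other base, C>A or G>T, passed at 0 positions by edgeR and by limma, beside 63 at an unadjusted p under 0.05, 15 by DESeq2 and 13 (1.93%) with the block. In AGCT their median log2 difference was -2.14. The edgeR fit had little power here. On simulated counts it called 4 of 50 positions lowered 4-fold and 22 of 50 lowered 16-fold. For complementary changes it called 22 and 38 of 50, so the counts of 0 and 25 are not on an equal footing. The groups did not overlap in changes to the complementary base at 33 positions lower and 4 higher with Ugi (4.9% and 0.593% of those tested), and in changes to the other base at 57 lower and 1 higher (8.46% and 0.148%). Without experiment 1 in all groups the count of 25 became 0, and 28 when the block was added. Leaving out single libraries of the compared groups gave 17 to 25, lowest without Ugi AID of experiment 2.

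Averaged over AGCT, changes to the complementary base stood at 1.96, 1.18 and 3.69 per 10000 calls with Ugi and 48.4, 33.0 and 112 with UNG. The AID-E58Q means were 1.03 with Ugi and 1.22 with UNG. UNG AID libraries were thus 24.7-, 27.9- and 30.4-fold above Ugi AID libraries within experiments. Changes to the other base stood at 2.88, 2.78 and 1.73 with Ugi and 14.2, 4.97 and 19.8 with UNG, beside AID-E58Q means of 2.71 and 1.7. Both kinds were lower in every Ugi AID library, and the complementary change differed more in each experiment. It made up 40.5%, 29.8% and 68.1% of AGCT transversions with Ugi and 77.4%, 86.9% and 85.0% with UNG.

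Within AGCT the level varied from site to site. At position 151, the C of the first AGCT, transitions made up 2.95%, 1.97% and 9.52% of calls with Ugi and 0.313%, 0.516% and 1.08% with UNG (log2 difference 2.92, SE 0.85, adjusted p = 0.0274, edgeR). Changes to the complementary base there were 0.0491%, 0.0520% and 0.0609% with Ugi and 1.43%, 0.853% and 2.60% with UNG (-4.91, SE 0.84, adjusted p = 2.90e-04, edgeR). So with Ugi the most common product at this base pair was the transition, and with UNG the complementary change. The facing G at position 150 had 0.427%, 0.450% and 4.38% transitions with Ugi and 0.141%, 0.0919% and 0.745% with UNG, which overlapped. Its complementary changes did not overlap, at 0.00728%, 0.0242% and 0.0839% with Ugi and 0.783%, 0.744% and 2.05% with UNG.
Position 385, in the fourth AGCT, had the largest complementary difference, 0.0146%, 0.00852% and 0.00622% with Ugi against 0.351%, 0.281% and 0.854% with UNG (-5.64, SE 0.80, adjusted p = 5.47e-05, edgeR). Over all 13 bases, complementary changes ranged from 0.00728% to 0.0491%, 0.00134% to 0.0520% and 0.00622% to 0.0839% in the Ugi AID libraries of experiments 1, 2 and 3. In UNG AID libraries they ranged from 0.0977% to 1.43%, 0.0328% to 0.853% and 0.347% to 2.60%.

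**Figure D3:**
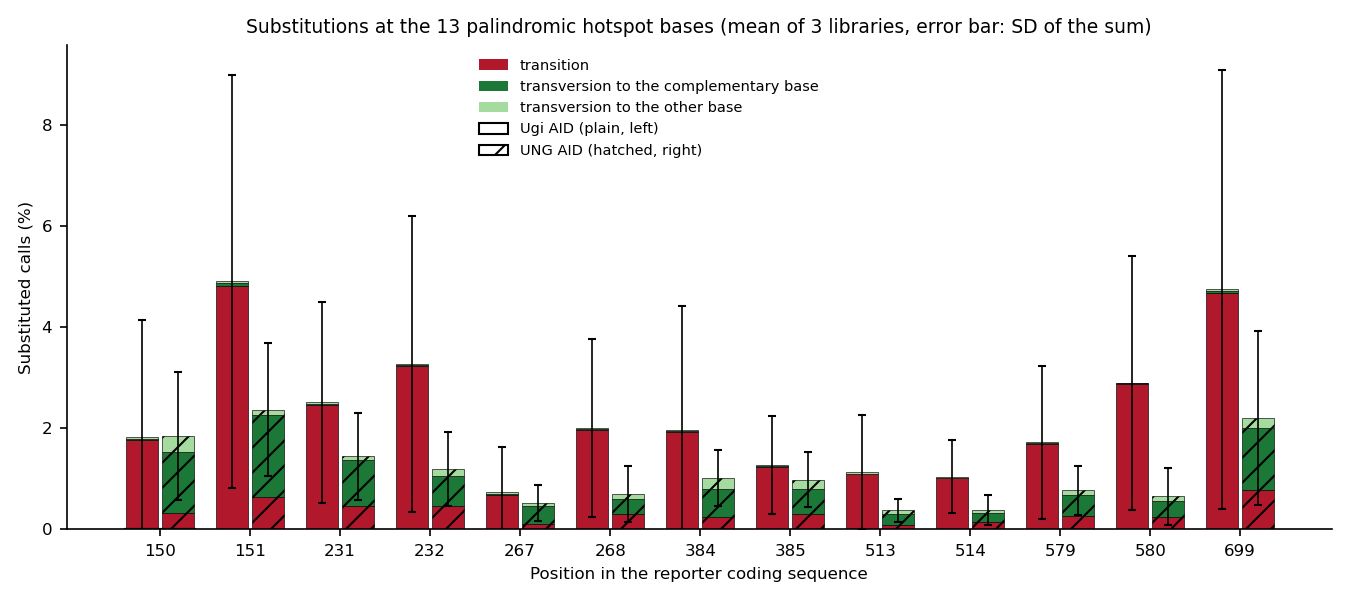
Substitution frequencies in percent of calls at the 13 tested C:G pairs of AGCT for Ugi AID and UNG AID, stacked by kind as the mean of 3 libraries, with the SD of the summed frequency as error bar. Transitions make up most of each Ugi AID bar, and changes to the complementary base are a large part of the UNG AID bars.

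Position 237, 4 base pairs beyond the stop codon's AGCT, had the largest difference in all transversions outside that motif (log2 difference -4.49, SE 0.79, adjusted p = 0.00510, edgeR). Its complementary changes were 0.00675%, 0.00358% and 0.0239% with Ugi and 0.380%, 0.203% and 0.615% with UNG (log2 difference -5.10, SE 0.86, adjusted p = 2.90e-04, edgeR). Its changes to the other base were 0.0195%, 0.0197% and 0.0218% with Ugi and 0.162%, 0.153% and 0.633% with UNG. Both kinds lay apart. At position 708, in TACT and with fewer calls, complementary changes were 0 of 27974 calls over the 3 Ugi AID libraries, which allows up to 0.0107%, and 20 of 31675 calls over the UNG AID libraries. The UNG AID mean of 0.0605% was thus at least 5.64-fold higher than this limit taken over the group (adjusted p = 0.0136, edgeR).

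At the engineered stop codon TAG the kinds of change have different effects on the reading frame. G231A turns it into TAA, another stop, and made up 1.59%, 1.02% and 4.73% of calls with Ugi and 0.308%, 0.225% and 0.812% with UNG (log2 difference 2.45, SE 0.75, adjusted p = 0.0347, edgeR). G231C turns it into TAC, a tyrosine codon, and made up 0.0247%, 0.00880% and 0.0296% with Ugi and 0.681%, 0.604% and 1.48% with UNG (-5.44, SE 0.92, adjusted p = 2.90e-04, edgeR). The groups were apart in both, in opposite directions. G231T, which gives the tyrosine codon TAT, stood at 0.0422%, 0.0501% and 0.0180% with Ugi and 0.0614%, 0.00747% and 0.138% with UNG, and overlapped. Summed over the 3 bases of the codon, changes that remove the stop came to 0.136%, 0.109% and 0.236% with Ugi and 0.814%, 0.645% and 1.83% with UNG. The AID-E58Q sums were 0.0787%, 0.0741% and 0.237% with Ugi and 0.106%, 0.0676% and 0.245% with UNG, so the Ugi AID sum of experiment 3 was no higher than the Ugi AID-E58Q sum of that experiment. In experiment 3 the sums held many T>G and A>C calls, which were high in all groups of that experiment. T229G and A230C stood there at 0.0927% and 0.0511% in Ugi AID and 0.103% and 0.0565% in Ugi AID-E58Q. At the third base alone, stop-removing changes were 0.0669%, 0.0589% and 0.0477% with Ugi and 0.742%, 0.612% and 1.62% with UNG. The AID-E58Q values at this base were 0.0474%, 0.0239% and 0.0345% with Ugi and 0.0287%, 0.0147% and 0.0336% with UNG. Ugi AID thus lay above Ugi AID-E58Q there in each experiment. These are frequencies per base and not counts of molecules with a restored frame.

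**Figure D4:**
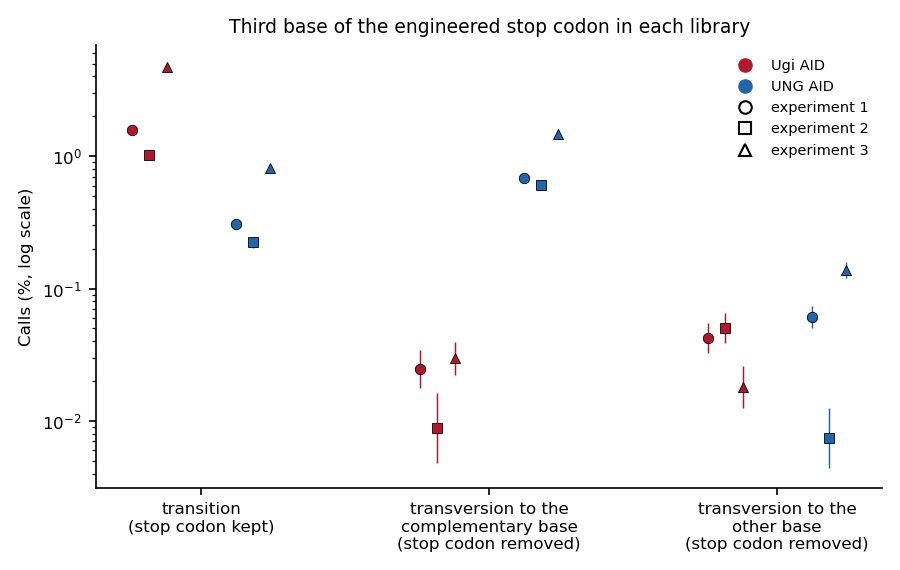
Frequencies of the 3 substitutions at position 231, the last base of the engineered stop codon, in percent of calls on a log axis. Each Ugi AID and UNG AID library is shown with its 95% Wilson interval. G231A is higher in all 3 Ugi AID libraries, and G231C is higher in all 3 UNG AID libraries.

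The base after the C went with the complementary change. With T there (93 pairs), these changes averaged 1.12, 0.641 and 1.22 per 10000 calls with Ugi and 9.07, 5.77 and 18.5 with UNG. With C there (139 pairs) they were 0.801, 0.469 and 0.654 with Ugi and 0.916, 0.488 and 0.677 with UNG. The 13 AGCT bases carried much of the level with T. Without them the 80 other pairs with T averaged 0.984, 0.553 and 0.822 with Ugi and 2.67, 1.34 and 3.24 with UNG, which still did not overlap. By position, 20 of 93 pairs with T after the C were lower with Ugi, against 3 of 78 with A, 1 of 139 with C and 1 of 114 with G. Outside AGCT it was 7 of 80 with T, 3 of 78 with A, 1 of 139 with C and 1 of 114 with G. The 7 included positions 54 and 297, both in CGCT and so no WRC hotspot. Position 297 had 0.00901%, 9.47e-04% and 0.00582% with Ugi and 0.0505%, 0.0235% and 0.115% with UNG (log2 difference -3.52, adjusted p = 0.0182, edgeR). At position 54 the UNG AID libraries had 0.304%, 0.00181% and 0.0856% and overlapped the Ugi AID libraries at 0.00208%, 0.00250% and 0.00343%. Both were named after their values were seen.

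Transitions showed no such concentration at T after the C, but were called least with G there. They were higher with Ugi at 28 of 93 pairs with T after the C (median log2 difference 1.89), 38 of 139 with C (1.29), 21 of 78 with A (1.68) and 6 of 114 with G (0.35). They also went with the bases before the C, and neither pattern was tested. A immediately before gave 36 of 72 pairs, G 30 of 119, C 17 of 139 and T 11 of 96. At the place before that, A gave 40 of 73, T 23 of 90, C 26 of 125 and G 5 of 138. All 20 transversion calls had A (14 of 73) or T (6 of 90) at that place, and 17 of them had G immediately before the C. AGCT itself has A and G at these places, and 12 of the 20 were AGCT bases. Outside AGCT, A stood at that place only at positions 207 and 238, against the 6 with T. G stood immediately before the C there at 237, 238, 354, 355 and 577.

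AGCC and AGCT differ in the base after the C, and of them only AGCT offers a hotspot C on each strand. These features cannot be told apart here. At the 7 AGCC pairs transitions averaged 43.2, 50.5 and 270 per 10000 calls with Ugi and 8.22, 6.93 and 19.1 with UNG, higher at 7 of 7 (median log2 difference 3.43). Complementary changes there averaged 0.868, 0.300 and 0.710 with Ugi and 0.648, 0.392 and 1.11 with UNG, and passed at 0 of 7 (-0.05), against 13 of 13 in AGCT. AGCC pairs thus shared the transition difference of AGCT, while the groups overlapped in the complementary change. Position 218 is the AGCC pair with the most Ugi AID transitions, chosen after its values were seen. It had 0.912%, 1.06% and 4.34% transitions with Ugi and 0.104%, 0.143% and 0.296% with UNG (3.54, SE 0.81, adjusted p = 0.00953, edgeR). Its complementary changes were 0.0112%, 0.00425% and 0.00536% with Ugi and 0.00742%, 0.00568% and 0.00652% with UNG (0.09, SE 0.59, adjusted p = 1, edgeR). Its changes to the other base were 0.0457%, 0.00936% and 0.0137% with Ugi and 0.0937%, 0.119% and 0.109% with UNG, so the transversions it did gain with UNG were of that kind.

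Other hotspot motifs were set side by side in the same way. At the 6 AACT pairs complementary changes averaged 1.25, 0.597 and 1.74 per 10000 calls with Ugi and 3.22, 3.54 and 7.34 with UNG, and at the 3 TACT pairs 1.41, 0.522 and 1.47 with Ugi and 9.94, 4.94 and 12.4 with UNG. At the 7 TACA pairs they were 1.07, 0.506 and 1.24 with Ugi and 1.40, 0.734 and 2.99 with UNG, and overlapped. All 3 sets had large transition differences, higher with Ugi at 6 of 6 AACT and 5 of 7 TACA pairs. At the 6 TGCA pairs changes to the other base averaged 1.21, 0.808 and 1.24 with Ugi and 4.09, 4.66 and 8.17 with UNG, beside complementary changes of 1.23, 0.735 and 1.35 with Ugi and 1.97, 2.39 and 2.61 with UNG. Over the 11 AAC, 15 TAC and 16 TGC pairs, the complementary change made up 71.3%, 80.4% and 73.6%, then 57.8%, 50.2% and 50.4%, then 40.7%, 42.2% and 35.8% of UNG AID transversions in experiments 1, 2 and 3. No test was made of these differences between motifs.

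The sum of all substitutions differed less than either kind. At C:G pairs it came to 14.4, 11.8 and 48.9 per 10000 calls with Ugi and 13.1, 7.52 and 15.5 with UNG, and the groups overlapped (1.10-, 1.57- and 3.15-fold; log2 difference 0.81, exact permutation p = 0.5, adjusted 0.667). In AGCT it was 125, 91.7 and 474 with Ugi and 81.6, 56.5 and 193 with UNG, and overlapped as well. In the other 23 WRCY pairs the sums were 39.4, 36 and 190 with Ugi and 17.6, 11.7 and 32.5 with UNG, with every Ugi AID library higher. Above AID-E58Q, the UNG AID excess in all substitutions was 63.9%, 63.1% and 39.7% of the Ugi AID excess in AGCT, and 53.7%, 46.7% and 29.1% in all of WRCY. At position 385 the sums were 0.735%, 0.679% and 2.38% with Ugi and 0.770%, 0.559% and 1.59% with UNG, and at position 150 they were 0.480%, 0.482% and 4.48% with Ugi and 1.24%, 0.985% and 3.30% with UNG. At these bases the total was thus higher with UNG in experiment 1, and at 150 also in experiment 2.

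Whether the difference between Ugi and UNG depended on AID activity was tested as the interaction with AID-E58Q. For transitions 6 positions passed (0.89%, edgeR quasi-likelihood test), all higher with Ugi, and with the block 54 higher (8.01%) and 1 lower (0.148%). For transversions 8 positions passed (1.19%), all lower with Ugi, and with the block 20 (2.97%). The largest of the 6 were TACA at 534 (log2 difference 5.59, SE 1.11, adjusted p = 0.0330, edgeR) and ATCA at 618 (5.51, SE 1.19, adjusted p = 0.0367, edgeR). Of the 8, 6 were AGCT bases, led by position 151 (-4.85, SE 0.82, adjusted p = 0.00963, edgeR), and another was position 237 (-4.80, SE 1.03, adjusted p = 0.0397, edgeR). The last, position 294, rested on high values in Ugi AID-E58Q of experiments 1 and 2. Changes to the other base stood there at 0.935%, 1.08% and 0.0138% in Ugi AID-E58Q libraries, against 0.0108%, 0.0119% and 0.0118% in Ugi AID libraries.
These counts were lost without several single libraries. The transition count was 0 without UNG AID of experiment 1 or 2, without Ugi AID-E58Q of experiment 1 or 2 or without UNG AID-E58Q of experiment 1 or 3, and 25 without Ugi AID of experiment 2. The transversion count was 0 without Ugi AID of experiment 1, UNG AID of experiment 3 or any UNG AID-E58Q library. It was 1 without Ugi AID of experiment 2, UNG AID of experiment 1 or Ugi AID-E58Q of experiment 1 or 2, 4 without Ugi AID of experiment 3 and 12 without UNG AID of experiment 2.

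Within WRCY, both strands and all stretches of the reporter carried the difference. Transitions at the 13 C bases averaged 79.9, 57.1 and 309 per 10000 calls with Ugi and 12.1, 12.3 and 32.4 with UNG, and at the 23 G bases 59.2, 51.6 and 277 with Ugi and 13, 9.53 and 34.3 with UNG. The ratio of C to G bases was higher with Ugi in 2 of 3 experiments (log2 difference 0.19, exact permutation p = 0.3). Over the 14 WRCY pairs at positions 74 to 268, transitions were 82.1, 68.3 and 348 with Ugi and 12.7, 13.8 and 41.0 with UNG. Over the 9 at positions 284 to 468 they were 37.1, 28.9 and 215 with Ugi and 7.82, 6.34 and 21.5 with UNG. Over the 13 at positions 507 to 708 they were 70.5, 54.9 and 277 with Ugi and 16.1, 9.94 and 34.2 with UNG, so the groups were apart in each stretch. Across the 36 WRCY sites, the Ugi AID transition excess went with the UNG AID transition excess (Pearson r 0.89, Spearman rho 0.76) and with the UNG AID transversion excess (r 0.80, rho 0.75). These are descriptions over sites of the same libraries, which are not independent replicates.

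A:T pairs did not separate the groups. Transitions averaged 1.60, 1.22 and 1.7 per 10000 calls with Ugi and 2.08, 1.20 and 1.7 with UNG (log2 difference -0.12, exact permutation p = 0.7). Transversions averaged 1.61, 1.23 and 6.67 with Ugi and 1.89, 1.16 and 6.68 with UNG (-0.05, exact permutation p = 0.9), with the high values of experiment 3 present in both groups. No A:T pair passed the threshold in transitions or in transversions in the edgeR fit without the block. With the block 2 passed in transitions (positions 49 and 643) and 1 in changes to the complementary base, all lower with Ugi. In transitions DESeq2 called 1 A:T pair lower and edgeR with TMM factors 4. All 6 kinds of substitution from A or T overlapped between Ugi AID and UNG AID.

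The lists of positions for the 2 kinds of change met only in part. Of the 94 positions with more transitions with Ugi and the 20 with fewer transversions, 10 were shared, 10.6% and 50% of the lists. With the block, 31 were shared of 155 and 37, which is 20% and 83.8%. The 20 positions lower in transversions shared 18 with the 25 lower in complementary changes, 90% and 72% of the lists.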

How the data were processed

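Genomic DNA of transduced NIH-3T3 cells was the source. Per the labels' protocols, the authors amplified the reporter for 25 cycles with Pfu Ultra, sheared the product and amplified the libraries for 10 more cycles. Per the submitters' processing notes CASAVA 1.7, Novoalign 2.07.04 and SAMtools 0.1.11 were used, without stated roles, and no alignment settings were found in the labels. The deposited table holds raw counts of calls over Phred 20 and of each substitution per position and library, per the file headers. Its fractions, made by the authors, equalled the ratio of those counts within 1e-12 where checked, and only the counts were used.

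Substitution counts at 674 positions with at least 1000 calls in all 18 libraries were fitted with edgeR 4.0.16 (R 4.3.3, quasi-likelihood test, log coverage as offset, 6 group coefficients), with Benjamini-Hochberg adjustment and a threshold of 0.05. On simulated counts for the same 674 positions and comparison it called 50 of 50 positions raised 16-fold and 23 of 50 raised 4-fold in transitions. In transversions it called 42 of 50 lowered 16-fold and 11 of 50 lowered 4-fold. False calls among 474 unchanged positions were 2 and 0, and 4 for complementary changes. The simulated counts had a single dispersion for all positions and no effect of experiment, unlike the data, so these figures may be too favourable. Frequencies of classes are means over positions, per 10000 calls, compared by exact permutation over libraries. Classes were read on the strand of the C. TMM factors, DESeq2 1.42.0, limma 3.58.1 (log2 with 0.5 calls added), a minimum of 10 calls, a coverage of 5000, omission of 25 end positions and of each library and experiment were tried. Positions were named by a rule: the 10 largest differences in transitions and in transversions and the 5 largest in each kind of transversion, among those past the threshold with libraries apart, plus the stop codon and AGCT. The members, classes and lists were chosen with earlier results of these data known.

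The titles' experiment number is taken to pair libraries, as the mark of a shared experiment. Deviations of same-numbered Ugi AID and UNG AID libraries correlated at 0.28, 0.13 and 0.56 in transitions and 0.52, 0.32 and 0.80 in transversions over all positions (experiments 1, 2 and 3), and at 0.15, 0.03 and 0.42, and 0.11, 0.04 and 0.43, over C:G pairs. Ugi AID of experiment 2 correlated better with UNG AID of experiment 1 (0.30 and 0.47 over all positions, 0.20 and 0.19 over C:G pairs) than with that of its own, so only experiment 3 stood apart, and the pairing rests on the titles. Fits with experiment as a replicate block stand beside those without.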

Additional observations from a re-analysis of the deposited data

Results flagged for a closer look

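Positions where the difference between Ugi and UNG itself differed between AID and AID-E58Q, by a test of the interaction (edgeR quasi-likelihood test, adjusted p under 0.05), are given here as log2 differences. In transitions they were 5.48 at position 261 in TACT, 5.15 at 375 in TACA, 5.59 at 534 in TACA, 5.51 at 618 in ATCA, 4.94 at 641 in CACC and 3.47 at 347 in CTCC. Position 347 had far lower frequencies than the other 5, with 0.00996%, 0.00822% and 0.0188% in Ugi AID libraries against 0.00403%, 0.00518% and 0.00353% in UNG AID libraries. Its AID-E58Q values ran the other way, with 0.00217%, 0.00206% and 0.00177% in Ugi AID-E58Q libraries and 0.00893%, 0.00493% and 0.00925% in UNG AID-E58Q libraries.

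In transversions the log2 differences were -4.71 at position 150, -4.85 at 151, -4.54 at 231, -4.26 at 268, -4.23 at 384 and -4.12 at 579, all in AGCT, with -4.80 at 237 and -6.31 at 294. At position 294 the difference between Ugi AID and UNG AID alone had adjusted p = 0.929 (edgeR), and the high values were those of Ugi AID-E58Q in experiments 1 and 2.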

How the results depend on the processing

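At the named positions, no value past the threshold in the main fit or in an alternative changed its sign between them. Sign changes of values past it in neither fit were not counted. Of all these values, 931 stayed on the same side of the threshold, 162 were no longer past it and 36 were newly past it. Beside the counts of 94 (transitions), 20 (transversions), 25 and 0 (to the complementary and the other base), 6 and 8 (interactions in transitions and transversions), the replicate block gave 155, 37, 32, 13, 54 and 20. DESeq2 gave 31 in transversions, 15 to the other base, and 51 and 18 interactions. TMM factors gave 11 interactions in transitions, and limma gave 62 in transitions and 16 to the complementary base. With only the compared groups fitted, transitions gave 0, transversions 8, and the interactions 0 and 3. Leaving out 1 library at a time without the block gave 3 to 144, 3 to 27, 17 to 25, 0, 0 to 25 and 0 to 12 in the same order. With the block the highest counts on leaving out data were 149 (without experiment 1) and 38, 34, 14, 48 and 22 (without UNG AID of experiment 1). Without experiment 1, 2 or 3 in all groups, without the block, the counts were 0, 46 and 62, then 0, 9 and 13, then 0, 21 and 21 for the first 3, and 0, 0 and 8 and then 0, 0 and 1 for the interactions. Leaving out UNG AID of experiment 1 or Ugi AID of experiment 3 with the block, both added after seeing the data, gave 148 and 87 transitions, 38 and 24 transversions, and 34 and 27 complementary changes.

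Leaving out a library gave log2 differences of 0.97 to 2.13 for C:G transitions, -1.77 to -1.16 for C:G transversions, 0.18 to 1.20 for all C:G substitutions, 2.23 to 3.48 for the transition share, -1.41 to -0.63 for the complementary share, 1.86 to 3.13 and -3.65 to -2.79 for WRCY transitions and transversions, 1.27 to 1.79 for WRCY over other C:G pairs and 0.09 to 0.34 for C over G bases. The sign turned for A:T transitions (-0.33 to 0.060), A:T transversions (-0.80 to 0.67) and AGCT over other WRCY (-0.23 to 0.13), and for C over G bases in WRCY with AID-E58Q subtracted (-0.011); the cause was not tested. Subtracting AID-E58Q gave 2.85 for C:G transitions and no value where an excess was at or below 0. Coverage limits position 699 most. There the 95% interval of a transition frequency extended by up to 61.5% of its value per side, averaged over the lower and upper side. At the other AGCT bases this was at most 43.7%.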
